A study of Oryzias latipes with 10 samples.

Results

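In the liver of the medaka, a freshwater fish kept as a laboratory model (Oryzias latipes), 39 genes were lower in every phod1 knockout library than in every wild-type library by a fixed margin. They were chosen by their RPM values (reads per 1000000 reads): the lowest of the 5 wild-type (WT) libraries had to exceed the highest of the 5 knockout (KO) libraries by at least 25%. The ratio of these values is called the margin of a gene below. Genes also needed a mean of at least 5 RPM over the 10 libraries. Of 25795 genes in the deposited table, 9735 reached that mean, and 43 of them (0.442%) met both conditions. Of these, creld2, pdia6, dap and acaa2 were set aside, as were hsp90b1 and manf, which did not meet the rule, and 39 genes were left. The values compared between KO and WT chose these genes, so their differences are given as a description and carry no test.

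KO fish carried a knockout of phod1, also written pd1 in the labels, and WT fish did not; the labels give no allele, and neither sex, age nor batch. Fish of both groups lived under long days, and their livers were collected at 12:00. To compare liver transcripts with and without phod1, libraries were made with Lasy-Seq, which sequences the 3′ ends of transcripts, and each group had 5 libraries (KO1 to KO5 and WT1 to WT5). Nothing says how the animals were drawn or whether any were pooled. The p-values set differences and slopes against the spread among these libraries, and cannot be carried over to fish in general.

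Liver cells make most plasma proteins, and in egg-laying females they also make yolk and eggshell precursors under the control of estrogen. Such proteins enter the endoplasmic reticulum (ER), where chains are folded, receive sugar trees at asparagine and are sent on to the Golgi in coated vesicles. Chains that fail to fold are drawn back out of the ER and broken down, a route known as ER-associated degradation.

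Libraries held 4542721 to 10112313 reads in KO and 5422342 to 9803543 reads in WT, so that 1 read was worth 0.0989 to 0.220 RPM. The highest KO total is that of KO5, whose smallest step lies close to 0.1 RPM and was not relied on as a read; the other KO libraries held up to 8371495 reads. Transcripts of 3 egg protein genes (vit-6, ol-vit1 and 1-sf) took 6.95% of the reads in KO2 and 0.428% to 0.593% in the other KO libraries, against 2.77% in WT3 and 10.4% to 13.98% in the other WT libraries. KO2 and WT3 therefore lay between the remaining libraries of the 2 groups on this measure. Markers of hepatocytes summed to 18752 to 24848 RPM in KO and 7682 to 18299 RPM in WT over 5 matched genes (fgb, fga, fgg, hpx and rbp4). The groups did not overlap in this sum, which can differ by the level of these genes as well as by cell number. The exocrine pancreas marker cpb1 had 3.52 to 71.9 RPM in KO and 12.2 to 208 RPM in WT, and 2 macrophage markers summed to 36.3 to 57.3 RPM in KO and 39.8 to 179 RPM in WT. Neutrophil markers (3, of which 2 averaged under 1 RPM) summed to 819 to 1833 RPM in KO and 413 to 1756 RPM in WT. All matched markers of lymphocytes (4), ovary (4) and muscle (2) averaged under 1 RPM. The part of these levels in the results below was not tested, and in bulk tissue fewer cells of a type and less RNA per cell cannot be told apart. No gene of the name table is called phod1 or pd1, so the knockout was not checked at its own transcript.

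Most of the 39 genes stood at less than 50% of their WT mean in KO liver. The KO mean was 22.1% to 60.9% of the WT mean, with a median of 41.0%, and lay under 50% in 29 genes. On the log2(RPM + 1) scale, which understates the change of low genes, the difference KO minus WT had a median of -1.19 and ran from -2.01 to -0.70, beside a median of -0.19 over the 14984 genes tested. Mean levels ran from 5.29 to 633 RPM with a median of 15.2 RPM, near the 13.5 RPM of all genes that reached the mean. Only 2 genes averaged over 100 RPM, 3 lay between 50 and 100 RPM, 23 between 10 and 50 RPM and 11 under 10 RPM. Of the 39 genes, 37 were annotated as protein coding and 2 as long noncoding RNA, while 21 had a gene symbol and 18 only a LOC number. All 39 passed the filter for testing of at least 1 RPM in at least 5 libraries, which the WT libraries alone can satisfy.

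**Figure D1:**
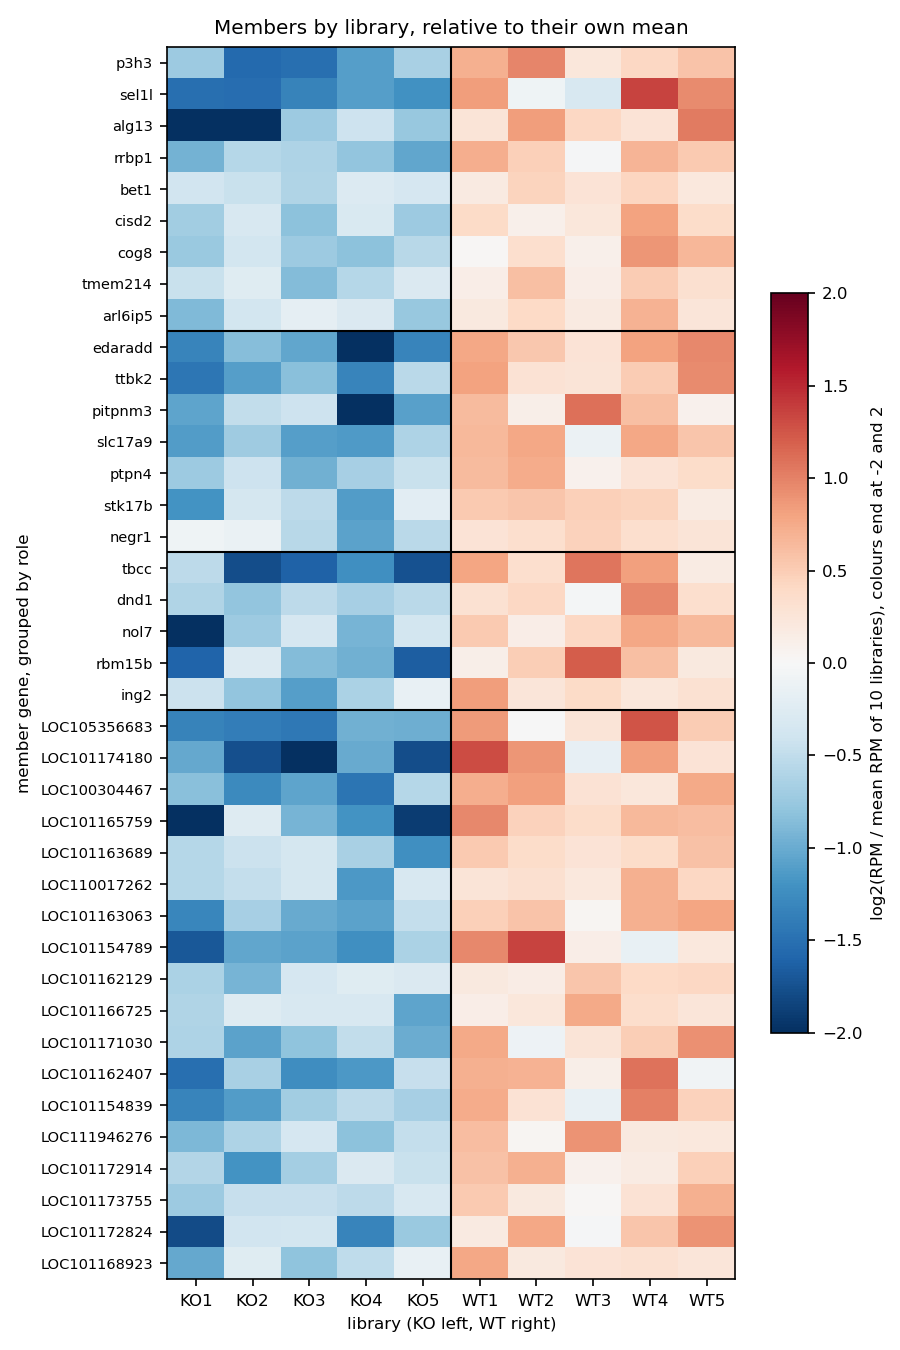
Each row is 1 of the 39 genes and each column 1 library, KO1 to KO5 left and WT1 to WT5 right; colour gives log2 of the RPM over the gene's mean RPM in the 10 libraries, blue below and red above that mean, with colours ending at -2 and 2. Rows are grouped as ER and secretory route, signalling and membrane, nucleus, RNA and tubulin, and genes without a name, and the palest WT cells often stand in WT3, the lowest WT library of 18 genes.

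Among the 21 genes with a symbol, 9 belong to the ER or the secretory route. The share of such genes among all genes at this level was not counted, so the 9 cannot be read as an excess. The widest margin among these was that of p3h3, whose product is an ER enzyme of the family that hydroxylates proline in collagen. p3h3 had 4.66, 2.64, 2.70, 3.58 and 4.94 RPM in KO1 to KO5, against 12.6, 15.2, 9.04, 10.3 and 11.5 RPM in WT1 to WT5. Its lowest WT value, in WT3, was 1.83 times its highest KO value, in KO5.

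sel1l encodes the adaptor that holds the ubiquitin ligase Hrd1 in the complex of ER-associated degradation. It had 13.3, 13.2, 14.9995, 17.8 and 16.5 RPM in KO1 to KO5, against 67.9, 35.7, 30.6, 97.3 and 73.1 RPM in WT1 to WT5. The KO libraries lay close together, while the WT libraries spread widely, with WT2 and WT3 well below the others. The means were 15.2 ± 2.00 RPM in KO and 60.9 ± 27.7 RPM in WT (SD, n = 5 each), a log2 difference of -1.82 ± 0.28 (SE), the largest of the 9 genes.

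alg13 encodes the catalytic partner of Alg14 in the enzyme that adds the second sugar to the dolichol-linked precursor of N-glycans. It had 1.499, 1.54, 3.93, 4.90 and 3.86 RPM in KO1 to KO5, against 7.78, 11.6, 8.67, 7.86 and 13.4 RPM in WT1 to WT5. KO1 and KO2 were the lowest libraries, and the groups did not overlap. Its value in KO2 rests on 7 reads, for which the exact Poisson 95% interval of 2.81 to 14.4 reads covers counting error only.

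rrbp1, a ribosome-binding protein of the rough ER membrane, had 93.4, 122, 117, 104 and 87.5 RPM in KO1 to KO5, against 299, 252, 178, 288 and 260 RPM in WT1 to WT5. WT3 was again the lowest WT library, and it still stood 1.46 times above KO2, the highest KO library. The mean was 105 ± 14.7 RPM in KO and 255 ± 47.6 RPM in WT.

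The SNARE gene bet1, which acts in fusion of vesicles between ER and Golgi, had the smallest log2 difference of all 39 genes but very even levels. It had 32.1, 30.6, 27.5, 34.5 and 33.1 RPM in KO1 to KO5, against 47.4, 56.5, 50.7, 56.3 and 48.6 RPM in WT1 to WT5, a log2 difference of -0.70 ± 0.18 (SE). cog8, a subunit of the COG complex that tethers vesicles at the Golgi, had 17.5, 22.7, 17.6, 16.5 and 19.8 RPM in KO1 to KO5, against 29.7, 36.6, 31.2, 53.6 and 46.1 RPM in WT1 to WT5. Here WT1 was the lowest WT library, just under WT3, and KO2 the highest KO library.

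Of the other ER membrane proteins, cisd2, an iron-sulfur protein linked to calcium handling, averaged 15.8 ± 2.66 RPM in KO and 30.5 ± 6.05 RPM in WT. tmem214 averaged 36.0 ± 6.03 RPM in KO and 63.6 ± 9.59 RPM in WT. arl6ip5, known in mammals as a regulator of a glutamate transporter, averaged 9.05 ± 1.84 RPM in KO and 16.1 ± 2.53 RPM in WT. Margins of these genes were narrow, at 1.33, 1.29 and 1.28 times in cisd2, tmem214 and arl6ip5.

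**Figure D2:**
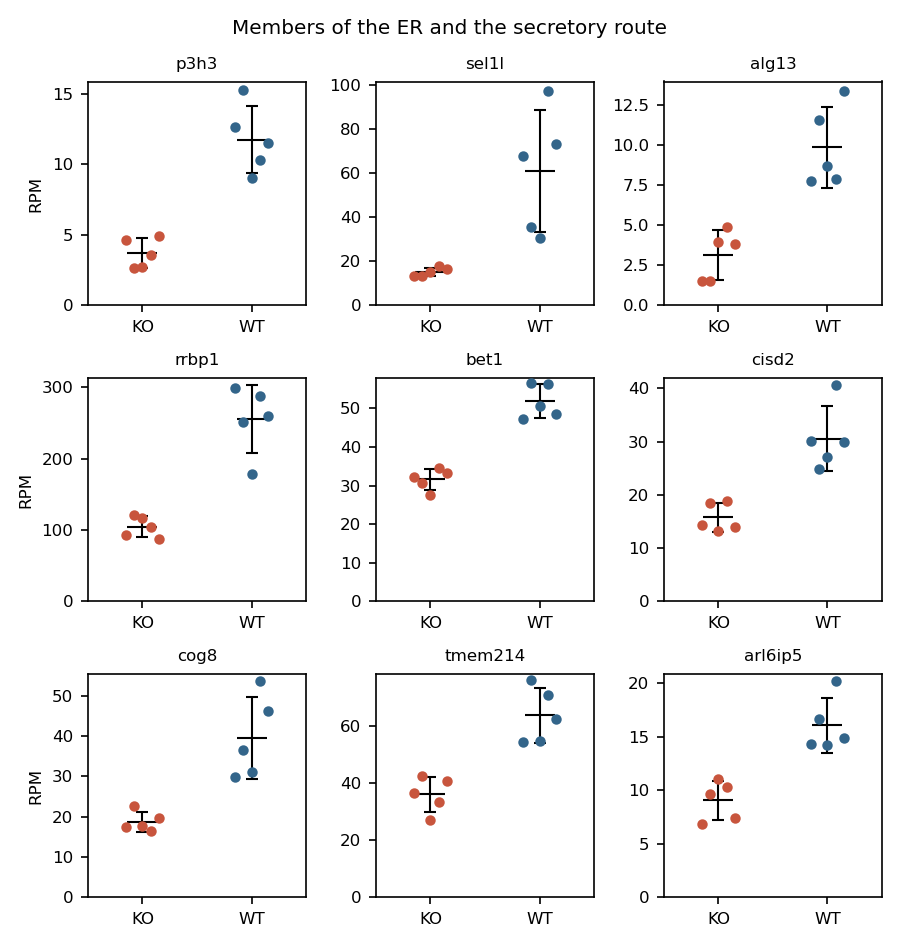
RPM of the 9 genes of the ER and the secretory route in each library, KO left and WT right in every panel, with a linear axis that starts at 0; points are libraries, the long bar is the mean and the whiskers show 1 SD (n = 5 per group). No KO point reaches a WT point in any panel, and the WT points of sel1l spread from 30.6 to 97.3 RPM.

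Another 7 genes act in signalling or at membranes. edaradd, the adaptor of the ectodysplasin receptor, had the widest margin of the 39 genes. It had 3.66, 5.06, 4.43, 0.836 and 3.66 RPM in KO1 to KO5, against 15.6, 13.3, 11.1, 15.9 and 17.7 RPM in WT1 to WT5. Its lowest WT library, WT3, stood 2.19 times above its highest KO library, KO2. The KO4 value, which does not enter the margin, rests on 7 reads.

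ttbk2, a kinase needed for the start of cilium assembly, had 4.497, 5.72, 6.89, 4.90 and 8.41 RPM in KO1 to KO5, against 21.4, 15.1, 14.8, 17.4 and 23.8 RPM in WT1 to WT5. slc17a9, the vesicular transporter of ATP and other nucleotides, had 28.1, 37.4, 28.4, 27.8 and 39.9 RPM in KO1 to KO5, against 96.1, 104, 56.2, 104 and 90.0 RPM in WT1 to WT5. WT3 was the lowest WT library of both genes, narrowly in ttbk2 and by a wide step in slc17a9.

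negr1, a cell adhesion protein of the immunoglobulin family known from neurons, had 66.0, 63.6, 47.5, 33.2 and 48.0 RPM in KO1 to KO5, against 84.3, 88.2, 95.5, 87.6 and 83.7 RPM in WT1 to WT5. Its WT libraries were nearly level, with WT3 the highest, whereas the KO libraries spread widely. pitpnm3, of a family of phosphatidylinositol transfer proteins, also had its highest WT value in WT3, and averaged 4.73 ± 1.95 RPM in KO and 13.3 ± 3.98 RPM in WT. ptpn4, a tyrosine phosphatase, averaged 9.46 ± 1.45 RPM in KO and 19.8 ± 3.68 RPM in WT. stk17b, a kinase of the death-associated protein kinase family, averaged 6.20 ± 1.84 RPM in KO and 13.0 ± 1.32 RPM in WT. These last genes had margins of 1.42, 1.41 and 1.29 times.

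The remaining 5 genes with a symbol act in the nucleus, on RNA or on tubulin. tbcc, a cofactor of tubulin folding, had 3.66, 1.54, 1.72, 2.27 and 1.58 RPM in KO1 to KO5, against 9.16, 6.65, 11.1, 9.37 and 5.92 RPM in WT1 to WT5. KO1 stood above the other KO libraries, WT3 was the highest WT library, and the KO2 value rests on 7 reads. dnd1, an RNA-binding protein required in zebrafish for germ cells, was almost level within KO, at 9.99, 8.81, 10.6, 9.56 and 10.5 RPM in KO1 to KO5, against 18.7, 20.3, 14.8, 29.5 and 19.1 RPM in WT1 to WT5. WT3 was its lowest WT library and WT4 its highest.

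nol7, a nucleolar protein, averaged 5.85 ± 2.61 RPM in KO and 14.6 ± 2.35 RPM in WT, and KO1 was its lowest library at 1.67 RPM. rbm15b, of a family that guides methylation of adenosine in RNA, averaged 2.84 ± 1.16 RPM in KO and 8.34 ± 2.74 RPM in WT. ing2, a chromatin reader of methylated histone H3, averaged 15.5 ± 3.86 RPM in KO and 31.1 ± 6.03 RPM in WT. The groups did not overlap in these 3 genes, as the rule requires, and WT3 was the highest WT library of rbm15b at 12.9 RPM.

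The 18 genes without a name included the largest log2 difference of all 39. LOC101174180 had 10.7, 6.38, 5.16, 10.8 and 6.33 RPM in KO1 to KO5, against 53.8, 39.9, 19.4, 38.2 and 26.3 RPM in WT1 to WT5, a log2 difference of -2.01 ± 0.29 (SE). LOC105356683 had 7.49, 7.26, 7.01, 9.80 and 9.69 RPM in KO1 to KO5, against 34.4, 18.9, 22.7, 45.5 and 27.0 RPM in WT1 to WT5. Both had WT libraries that differed among themselves by more than 2 times, and WT3 was the lowest WT library of LOC101174180.

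LOC111946276 had 341, 414, 502, 357 and 457 RPM in KO1 to KO5, against 973, 650.3, 1177, 727 and 734 RPM in WT1 to WT5. WT3 was its highest library and WT2 the lowest in WT. LOC101165759 had 6.99, 24.9, 15.7, 13.0 and 8.01 RPM in KO1 to KO5, against 57.9, 41.0, 38.5, 47.0 and 45.6 RPM in WT1 to WT5. KO2 was well above the other KO libraries and WT3 was the lowest in WT. LOC100304467 averaged 12.7 ± 3.13 RPM in KO and 38.5 ± 7.21 RPM in WT, and LOC101172914 averaged 49.7 ± 10.9 RPM in KO and 101.8 ± 18.8 RPM in WT.

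Of the 2 long noncoding RNAs, LOC110017262 averaged 17.3 ± 3.56 RPM in KO and 33.0 ± 4.73 RPM in WT, and LOC101154839 averaged 5.37 ± 1.20 RPM in KO and 13.8 ± 4.08 RPM in WT. Over the 18 genes without a name, log2 differences ran from -2.01 to -0.71 and mean levels from 5.54 to 633 RPM. Median log2 differences by role were -1.003 in the ER and secretory route, -1.35 in signalling and membrane, -1.29 in nucleus, RNA and tubulin and -1.16 without a name. LOC numbers made up 46.2% of the 39 genes and 42.7% of all genes that reached the mean of 5 RPM.

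Margins formed a continuum. Of the 39 genes, in 11 the lowest WT library exceeded the highest KO library by at least 50% and 22 had a margin under 1.4 times. Just inside the limit stood LOC101168923, negr1 and LOC101172824, each at 1.27 times, and just outside stood trip11, a Golgi tether, pdcd4, an inhibitor of translation, and p4hb, the protein disulfide isomerase, each at 1.24 times. p4hb averaged 337 ± 73.7 RPM in KO and 758 ± 143 RPM in WT. Just below the mean of 5 RPM, slc5a3, sumf2 and LOC111948005 had margins of 1.48, 1.57 and 1.27 times at mean levels of 4.99, 4.87 and 4.84 RPM. The 4 genes set aside that met the rule had margins of 1.49 (creld2), 1.46 (pdia6), 1.30 (dap) and 1.746 times (acaa2).

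The count of genes past the limit was the same in the opposite direction. Higher in every KO library by at least 25% were 43 genes (0.442%), the same count as lower before the genes were set aside. Without a margin, 310 genes (3.18%) were lower and 136 genes (1.4%) higher in KO with no overlap, while at 50% the counts were 12 lower and 21 higher. At a margin of 2 times, 1 gene was lower and 5 were higher. These counts depended on scaling. After TMM scaling, which sets libraries level on the bulk of genes, 19 genes were lower and 82 higher at 25%, and without a margin 99 were lower and 293 higher. The median log2 difference of all tested genes was -0.19 as deposited, with 67.3% of them below 0, and -0.01 after TMM scaling.

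Under TMM scaling 38 of the 39 genes still had no overlap, the exception being negr1, and 16 kept the 25% margin. These were p3h3, sel1l, alg13 and rrbp1 of the ER, edaradd, ttbk2, pitpnm3 and stk17b of signalling, tbcc and rbm15b, and 6 genes without a name. With median-of-ratios scaling 20 of the 39 genes kept the margin. The median log2 difference of the 39 genes was -1.01 after TMM scaling.

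**Figure D3:**
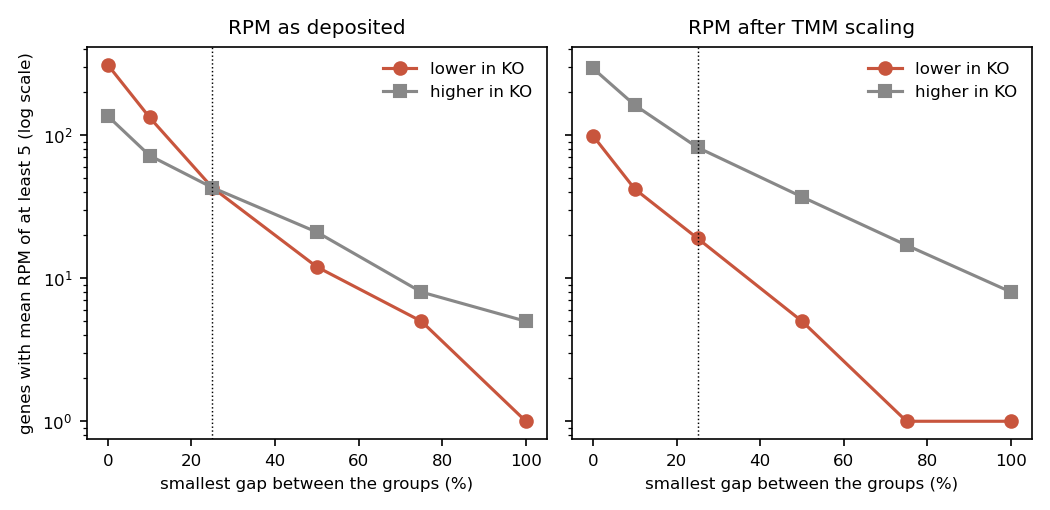
Number of genes with a mean of at least 5 RPM (log axis) whose groups are parted by at least the percentage on the horizontal axis, lower in KO (red circles) or higher in KO (grey squares), on RPM as deposited (left) and after TMM scaling (right); the dotted line marks 25% and the 6 genes set aside are included. The curves meet at 43 genes as deposited, and after TMM scaling the curve of genes higher in KO lies above the other throughout.

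Within a genotype the 39 genes varied somewhat less between libraries than all genes that reached the mean of 5 RPM. The highest over the lowest library had a median of 1.83 times in KO and 1.63 times in WT over the 39 genes, against 2.23 times in KO and 2.15 times in WT over all genes at that level; a rule that needs parted groups selects for this. WT3 was the lowest WT library in 18 of the 39 genes (46.2%), beside 22.9% of all genes at that level, and the highest in 7. KO2 was the highest KO library in 8 of the 39 genes (20.5%), beside 38.1% of all genes at that level, while KO5 was the highest in 12, KO4 in 10, KO3 in 7 and KO1 in 2. A gene with a high KO2 could seldom meet the rule, so the KO2 share is shaped by it too. The rule used the lowest WT value, whichever library held it, and the genes compared include those higher in KO. The WT3 share is therefore a description, and its reason was not tested. As a median over the 39 genes, the log2 difference from the WT mean was -1.29, -1.06, -1.11, -1.27 and -1.03 in KO1 to KO5, against 0.12, -0.06, -0.24, 0.07 and -0.01 in WT1 to WT5. Over all tested genes the same median was -0.40, 0.05, -0.12, -0.21 and -0.12 in KO1 to KO5, against 0.05, 0.01, 0.04, 0.08 and -0.09 in WT1 to WT5. KO1 was thus the lowest KO library over all genes as well as over the 39, and KO2 the only KO library with a median above 0 over all genes.

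How each gene followed the egg protein level among libraries of the same genotype was estimated with limma in a fit with genotype, as a slope in log2(RPM + 1) per log2 unit of summed egg protein RPM. The slopes lean on KO2 and WT3, the libraries that stand apart in egg protein, and the rule required KO2 to be low and WT3 to be high. Genes with a steep positive slope could therefore seldom be chosen, and the slopes of the 39 genes are a description with no test. Over all 14984 genes, limma called 20 slopes positive (0.133%) and 5 negative (0.0334%) at an adjusted p under 0.05. The slopes of the 39 genes ran from -0.14 to 0.25 with a median of 0.05, and the median over all genes was 0.04, with a range of -0.26 to 0.30 from the 5th to the 95th percentile. Slopes were positive in 27 of the 39 genes (69.2%) and in 60.3% of all genes. The steepest was that of LOC101165759, at 0.25 ± 0.10 (SE), followed by edaradd (0.21), LOC101172824 (0.20), slc17a9 (0.14) and rrbp1 (0.12). The most negative were those of alg13 (-0.14), tbcc and LOC101162129 (both -0.12), LOC101172914 (-0.10) and LOC111946276 (-0.07). The median SE of the 39 slopes was 0.10 over the 10 libraries. Without KO2 and WT3 together their median slope was -0.19. Egg protein then ran only from 0.428% to 0.593% of reads in KO and from 10.4% to 13.98% in WT. Over so narrow a range a slope is poorly estimated, so the change of sign was not interpreted.

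With the egg protein level as a term, the log2 difference of the 39 genes had a median of -0.99 and ran from -2.01 to -0.50, again a description, since the rule fixed KO2 below WT3 in each of them. The median SE was 0.43 in that fit and 0.26 with genotype alone; genotype and egg protein level run together in 8 of the 10 libraries. In the same limma fit no gene of 14984 passed for genotype, and 1146 had an unadjusted p under 0.05. No single gene was thus called for genotype apart from egg protein level, and the larger SE made such a call harder. The egg protein slope was called positive in 20 genes and negative in 5 in that fit.

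**Figure D4:**
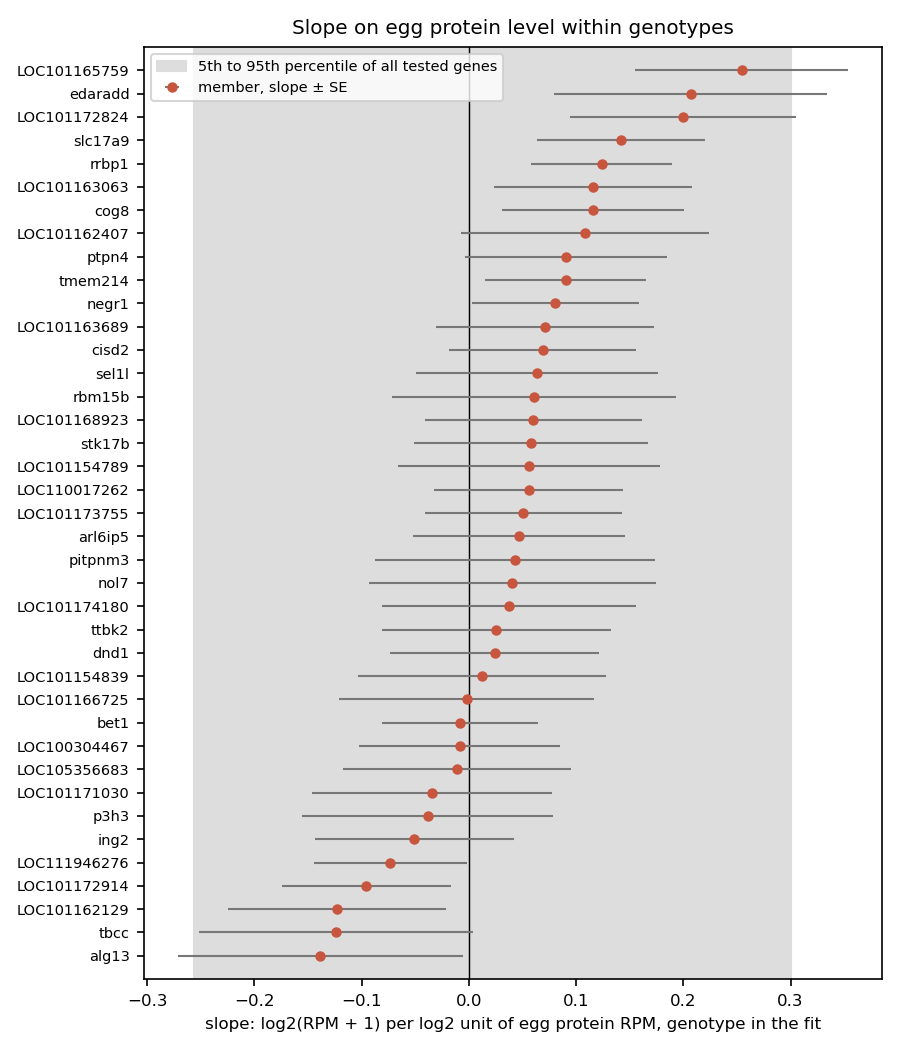
Slope of each of the 39 genes on the summed egg protein level within genotypes, in log2(RPM + 1) per log2 unit of egg protein RPM, with whiskers of 1 SE; the grey band spans the 5th to the 95th percentile of all 14984 tested genes, -0.26 to 0.30. All 39 points lie inside the band, 27 of them right of 0, and the choice of genes with a low KO2 and a high WT3 limits how far right they can lie.

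The 39 genes touch 3 of 22 pathway lists, and some of the other genes of these lists were lower in KO too. The lists were chosen with earlier results of these data known, so their counts are a description and no separate support. Over all tested genes limma called 252 lower (1.68%) and 175 higher (1.17%) in KO at an adjusted p under 0.05. The edgeR count test on 9 libraries called 47 lower (0.314%) and 131 higher (0.874%). edgeR applies TMM factors itself, and limma after TMM scaling called 131 lower and 303 higher. A call lost with edgeR is therefore not independent of one lost under TMM scaling. The edgeR test also left out KO5 and used another model, and limma without KO5 called 142 lower and 92 higher. Which of these differences lost a call was not tested. In ER-associated degradation, the list of sel1l, 4 of 20 other tested genes fell and none rose, with a median log2 difference of -0.51. In N-glycosylation, the list of alg13, 10 of 42 fell and none rose, with a median of -0.71. In transport by COPII and COPI vesicles and in the Golgi, the list of bet1 and cog8, 5 of 55 fell and none rose, with a median of -0.54. After TMM scaling these 3 medians were -0.30, -0.52 and -0.39, beside -0.01 over all tested genes. In none of the 3 lists was a gene higher in KO at an unadjusted limma p under 0.05 (0 genes) or by edgeR (0 genes). Leaving out WT3 raised the counts of genes that fell to 6, 19 and 11 in the order of these lists, and leaving out both KO2 and WT3 gave 6, 21 and 17. Without any 1 of the other libraries they were 1 to 3, 4 to 8 and 2 to 4, TMM scaling gave 1, 4 and 2, and edgeR gave 1, 1 and 2. The count over all tested genes rose as well, from 252 lower to 477 without WT3 and 620 without KO2 and WT3 together. A rise on leaving out these libraries is thus not particular to the 3 lists. Lower genes were not confined to lists that hold some of the 39. By limma 14 of 34 signal peptide and ER targeting genes fell, as did 10 of 30 ER chaperone genes and 5 of 18 aminoacyl-tRNA synthetases. Other lists had none called, such as the cytosolic ribosome (0 of 65). All 65 of its genes had a log2 difference below 0, with a median of -0.27. Over all tested genes 67.3% lay below 0, with a median of -0.19 that TMM scaling brought to -0.01. Over all 22 lists 57 of 566 other genes fell and 10 rose. The genes set aside at the start were not removed from these counts. Where a list holds creld2, pdia6, dap or acaa2, that gene was chosen on this same contrast and is no separate support.

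Among the genes beside sel1l, edem1, which delivers misfolded glycoproteins to degradation, had 27.6, 40.1, 25.9, 23.8 and 24.2 RPM in KO1 to KO5, against 88.3, 89.3, 38.7, 94.3 and 76.5 RPM in WT1 to WT5 (log2 difference -1.38 ± 0.25, limma adjusted p = 0.00419). KO2 and WT3 overlapped, and the other libraries were well apart. derl1 and derl2, membrane proteins of the same route, and the lectin gene erlec1 fell by 1.02, 1.08 and 0.93 on the log2 scale. Their calls were lost under TMM scaling (limma adjusted p = 0.1001, 0.0882 and 0.125) and with edgeR, and in 5, 7 and 8 of the 10 limma fits that left out 1 library. syvn1, the gene of the Hrd1 ligase itself, did not pass, at -0.53 (limma adjusted p = 0.300), and neither did os9, a lectin that binds Sel1l (-0.76, limma adjusted p = 0.0888). These direct partners, and those of alg13, bet1 and cog8 below, were chosen after their values were seen.

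Beside alg13, alg5, which makes the glucose donor of the pathway, averaged 22.8 ± 5.90 RPM in KO and 73.5 ± 25.5 RPM in WT (-1.59 ± 0.27, limma adjusted p = 0.00312). ost4 and ostc, subunits of the oligosaccharyltransferase, and dpm1, which makes the mannose donor, fell by 1.17, 1.02 and 1.20 on the log2 scale, and edgeR on 9 libraries did not call them (adjusted p = 0.123, 0.142 and 0.0867). Their calls were kept by limma under TMM scaling (adjusted p = 0.0267, 0.0407 and 0.0311) and lost in 0 of the 10 limma fits that left out 1 library. alg14, the membrane partner of alg13, stood at 3.85 ± 1.12 RPM in KO and 4.09 ± 2.42 RPM in WT (limma adjusted p = 0.961), and the sign of its log2 difference turned with 5 of the alternatives tried.

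In the transport list, lman1 and mcfd2, which form a cargo receptor for secreted glycoproteins, fell by 1.61 each on the log2 scale (limma adjusted p = 0.00388 for lman1 and 0.00336 for mcfd2). lman1 averaged 52.0 ± 3.90 RPM in KO and 178 ± 79.0 RPM in WT, where WT3 had 62.9 RPM and WT4 284 RPM. ergic1 and tmed10, membrane proteins that cycle between ER and Golgi, fell by 1.30 and 0.83, and those calls were lost under TMM scaling, with edgeR and in 8 and 9 of the 10 limma fits that left out 1 library. Of the SNARE partners of bet1, gosr2 fell by 1.08 (limma adjusted p = 0.0395), a call lost under TMM scaling (limma adjusted p = 0.107), with edgeR and in 8 of the 10 limma fits without 1 library, and stx5 did not pass, at -0.78 (0.0921). The 7 other COG subunits stood between -0.65 and 0.21, with limma adjusted p-values of at least 0.354. They averaged 1.72 to 18.4 RPM with SEs of 0.32 to 0.41, against 29.1 RPM and an SE of 0.22 for cog8. A difference was thus harder to call in them. WT3 was the lowest WT library in 11 of the 12 genes of the 3 lists with the smallest p, and the groups overlapped in 5 of these 12.

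**Figure D5:**
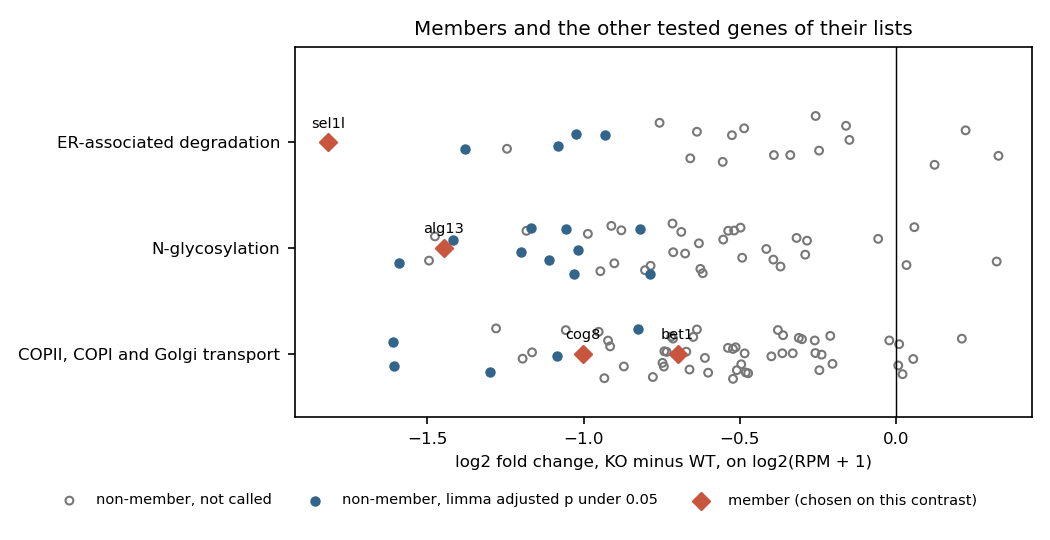
Log2 difference KO minus WT on log2(RPM + 1) of the tested genes of 3 lists, 1 row of points per list with vertical scatter for legibility only; red diamonds are genes of the 39, blue points are other genes with a limma adjusted p under 0.05 and open circles are other genes that did not pass. sel1l stands to the left of every other gene of its list, whereas alg13, cog8 and bet1 lie within the spread of theirs.

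By gene order, the 39 genes were scattered. They lay on 23 of 24 chromosomes, and the chromosome with most of them held 5 of the 39 (12.8%), beside 4.93% of all genes that reached the mean of 5 RPM. LOC111946276 and LOC101165759 were direct neighbours, and the next closest pair, LOC105356683 and LOC110017262, stood 22 genes apart. Of the genes flanking the adjacent pair, 5 were tested, and LOC101165093 came nearest to a call, at -1.34 (limma adjusted p = 0.0790). Whether the adjacent genes share reads was not tested.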

How the data were processed

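Medaka liver RNA was sequenced in 5 KO and 5 WT libraries, grouped by the labels. How many livers went into each library is not stated. The authors deposited 1 table of RPM values for 25795 genes; each library sums to 1000000, with no division by length. Per the labels' protocols, Lasy-Seq v1.1 libraries were made from DNase-treated total RNA. Tools named in the submitters' processing notes are Salmon 1.4.0 and BWA 0.7.17-r1188; the genome build is not given in the sources used here. Gene IDs were matched (25795) to a RefSeq gene table (ASM223467v1), used only for names, biotype and gene order.

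Members and lists were chosen with earlier results of these data known. Named are members by margin, level, list and slope, and up to 4 other genes per list by smallest p. Differences are KO minus WT from limma 3.58.1 (limma-trend, R 4.3.3) on log2(RPM + 1), for 14984 genes (5 or more libraries at 1 RPM or more), two-sided, with Benjamini-Hochberg adjustment at 0.05. The slope fit adds the log2 summed RPM of 3 egg protein genes; the rule bears on KO2 and WT3, so members' slopes are described and not tested. In all 10 libraries 100% of values were whole multiples of the smallest (within 1e-06), read as 1 read. In KO5 that step lies close to 0.1 RPM. Of its values, 0 were multiples of 0.1, but as a precaution KO5 was left out. The read counts of 9 libraries were tested with edgeR 4.0.16 (quasi-likelihood, with TMM factors), giving 47 genes lower and 131 higher. Pairs of libraries of the same group differed by more than sampling noise (smallest chi-square over its degrees of freedom 15.8), so none merely repeats the reads of another. Each was treated as a sample, but this cannot show that the libraries come from separate animals. The fits were also run on simulated data with known changes and the same added spread in every gene. That run does not bear on how these libraries spread. Alternatives were pseudocounts of 0.5 and 5, filters, TMM and median-of-ratios scaling, robust variances, a replicate block, leaving out libraries and esr1 as the egg measure; those on edgeR, on the egg term and most of those without KO2 and WT3 together were chosen after seeing the data. Figures used Python 3.11.15 with matplotlib 3.10.9, pandas 2.3.3 and numpy 2.4.6.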

Additional observations from a re-analysis of the deposited data

Results flagged for a closer look

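In 5 of 108 groups of 5 libraries, over 54 named genes, 1 library stood far from the other 4 by the gap over the range. Chance gives about 1 in 20 such groups drawn at random, near the share seen. The genes were chosen by margin or smallest p and share libraries, so that rate is only a rough guide. Among the 39 genes lower in every KO library, the flagged ones were ing2 and LOC101168923, both in WT1. There ing2 had 41.7 RPM, while the other WT libraries had 27.2 to 30.2 RPM. LOC101168923 had 23.2 RPM in WT1, while the other WT libraries had 15.4 to 16.6 RPM. Among the other list genes, edem1 had 40.1 RPM in KO2, above 23.8 to 27.6 RPM in the other KO libraries. ost4 had 91.3 RPM in WT3, below 162 to 186 RPM in the other WT libraries, and dpm1 had 25.3 RPM in WT3, below 51.2 to 59.1 RPM in the other WT libraries.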

How the results depend on the processing

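The median log2 difference of the 39 genes stayed between -1.28 and -0.99 under TMM (-1.01) and median-of-ratios scaling, edgeR, a pseudocount of 0.5, the egg term, a replicate block and leaving out libraries; at a pseudocount of 5 it was -0.88, since the larger pseudocount shrinks low genes. The number of genes meeting the rule was 304 without a margin, 11 at 50%, 69 at a mean of 1 RPM, 17 at 20 RPM, 16 under TMM and 20 under median-of-ratios scaling. Leaving out 1 library gave 295 without WT3, 151 without KO2 and 52 to 78 without any other, and leaving out KO2 and WT3 together gave 459. Fewer libraries loosen the rule by construction, but the size of the rise depended on which library was left out. Of all tested genes, 103 were lower and 73 higher without a filter, 131 and 303 under TMM, 143 and 296 under median-of-ratios scaling, 103 to 477 and 92 to 364 without 1 library, and 620 and 418 without KO2 and WT3; edgeR called 47 lower. Of 566 other list genes (57 lower and 10 higher), 29 were lower and 5 higher without a filter, 24 lower under TMM, 30 under median-of-ratios scaling, 9 with edgeR, 23 to 87 lower and 5 to 18 higher without 1 library, and 103 and 19 without KO2 and WT3. Called slopes were 11 positive and 3 negative without a filter, 15 to 44 and 3 to 41 without 1 library, 0 and 2 without KO2 and WT3 and 13 and 0 with esr1 as the egg measure, and negative slopes numbered 28 under TMM, 22 under median-of-ratios scaling and 16 with robust variances. alg14 (0.06) changed sign at a pseudocount of 5 (-0.0054), without KO2 (-0.017), KO4 (-0.035) or WT1 (-0.26) and without KO2 and WT3 together (-0.036), over a leave-one-out range of -0.26 to 0.29. Causes were not tested where none is named. The replicate block gave 190 lower and 145 higher genes (48 and 8 in the lists); same-numbered libraries correlated at -0.08 to 0.0008, no KO library correlated best with its own number, and the numbers were not taken as pairs. A search of promoter motifs was not run. In 7 of the 39 genes the lowest library had under 20 reads, so counting error weighs most on those single values. Margins rest on the highest KO and lowest WT values, and their counting error, which also weighs on low genes, was not estimated.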
